A study of Mus musculus with 2 samples.

Results

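The R-spondin and Lgr receptor genes Rspo1, Rspo2, Rspo3, Lgr4 and Lgr5 were followed through the cell groups of the adult mouse colon. The 5 genes were chosen by name. All 5 were among the 17809 genes listed for the wild-type library, and 4 of them were among the 15972 genes listed for the reporter library, where Lgr5 was not listed. Single-cell RNA was measured in 2 libraries. The wild-type library held EpCAM-positive cells and EpCAM-negative, CD45-negative cells of C57BL/6 colon mixed in equal parts (V3 kit, 7495 cells). The reporter library (V2 kit, 4409 cells) held mesenchymal cells sorted for GFP from Pdgfra-H2B-eGFP mice, in which a nuclear green fluorescent protein is made under control of the Pdgfra locus. Pdgfra transcripts were still counted in these cells. Each library pooled 3 untreated female mice aged 8 to 12 weeks, and cells cannot be assigned to mice. There is thus 1 library per condition and no replicate, so no test was run. Intervals of a share of cells are 95% Clopper-Pearson intervals that cover counting error only. Overlap of such intervals does not show that the shares are equal. Intervals of a log2 ratio combine the outer bounds of both shares, hold the means of the cells above 0 as observed, and are not 95% intervals. Where no cell was above 0, the share that this allows is given separately as 3 cells over the number of cells, which is below the upper Clopper-Pearson bound.

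R-spondins are secreted proteins that raise Wnt signalling. They bind the receptors Lgr4, Lgr5 and Lgr6, and the complex takes the ubiquitin ligases Znrf3 and Rnf43 off the cell surface, which would otherwise remove the Frizzled receptors. In the intestine Lgr5 is the classical marker of the stem cells at the crypt base, Lgr4 is found more broadly in the epithelium, and the ligands come from cells below the epithelium. On mouse build GRCm38 (mm10), Rspo1 (ENSMUSG00000028871) lies on the forward strand at chr4:124986430-125009099, Rspo2 (ENSMUSG00000051920) on the reverse strand at chr15:43020794-43170826 and Rspo3 (ENSMUSG00000019880) on the reverse strand at chr10:29452416-29535867. Lgr4 (ENSMUSG00000050199) lies on the forward strand at chr2:109917647-110014257 and Lgr5 (ENSMUSG00000020140) on the reverse strand at chr10:115450311-115587780. All 5 are protein-coding genes in the annotation.

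Values are called corrected counts. They are the deposited whole numbers, read from their narrow totals as counts that the authors adjusted to a common sequenced depth. Wild-type cells had a median total of 8972 and reporter cells of 3150, and cells had a median of 2804 and 1381 genes. Differences between the libraries in sequenced depth and kit cannot be told apart from those in strain and sort. Below, the depth of cells or groups means their number of genes above 0 in these corrected values. It is not sequenced depth, and a similar depth does not show that detection was equal. Cells were assigned to groups by summed marker genes that include no R-spondin and no Lgr gene. Group names are short for cells that resemble the named type by these markers. CBFs are crypt-bottom fibroblasts, gated on Cd34, Serpina3n, C3, Thy1, Ccl8 and Tnfsf13b, and CTFs are crypt-top fibroblasts, gated on F3, Sox6, Glp2r, Cybrd1, Col4a5 and Emid1. CBFs2 are CBFs high for Pi16, Pcolce2, Ackr4, Cilp and Cd81, and CBFs1 are the rest. The wild-type library gave 1081 CBFs1, 486 CBFs2 and 723 CTFs, and the reporter library gave 2379, 647 and 362. Pdgfra, which no gate used, averaged 8.85 corrected counts per cell in wild-type CTFs, 3.16 in CBFs2 and 1.74 in CBFs1, and 1.20, 0.374 and 0.295 in the reporter library. These values are no independent check of the gates, because some fibroblast markers came from leading genes of earlier clusters of these data. The other wild-type groups held 848 smooth muscle cells, 511 blood endothelial cells, 55 glia, 46 pericytes, 41 lymphatic endothelial cells, 36 immune cells, 2 mesothelial cells and 2736 epithelial cells. All defining markers of each list were at 2-fold or more over the other cells and present in at least 10% of the cells of the group, except 1 of 6 in the crypt base list and 1 mesothelial gene that was not listed in the wild-type library, and 3 of 6 in the 12 pericytes and 1 of 6 in the CTFs of the reporter library. Smooth muscle cells could also pass the fibroblast cut, lymphatic endothelial cells the blood endothelial cut, and wild-type mesothelial cells the fibroblast and epithelial cuts. A further 668 wild-type and 188 reporter cells passed other combinations of lineage cuts, or none, and belonged to no group.

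Rspo3, which encodes an R-spondin, was detected among fibroblasts mainly in CBFs and hardly in CTFs. It was above 0 in 115 of 1081 wild-type CBFs1 (10.6%, interval 8.86 to 12.6) and 109 of 486 CBFs2 (22.4%, interval 18.8 to 26.4), but in 1 of 723 CTFs (0.138%, interval 0.00350 to 0.768). Mean Rspo3 was 0.144 corrected counts per cell in CBFs1, 0.344 in CBFs2 and 0.00138 in CTFs. Of all 334 wild-type cells above 0, 34.4% were CBFs1, 32.6% were CBFs2 and 15.0% were cells of no group, and 15 were fibroblasts of no type. Most cells above 0 held a single count. Of the 109 CBFs2 cells, 71 were at 1, 25 at 2 and 13 at 3 or more, with a highest value of 5. The log2 ratio of the means of all CBFs over CTFs was 7.22, with an interval of 4.56 to 12.70 set by the outer bounds of the shares of both groups. The single count in CTFs leaves this ratio imprecise, and it was 6.06 when all marker cuts were halved.

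In the reporter library Rspo3 was above 0 in 83 of 2379 CBFs1 (3.49%, interval 2.79 to 4.31), 73 of 647 CBFs2 (11.3%, interval 8.95 to 14.0) and 1 of 362 CTFs (0.276%, interval 0.00699 to 1.53). By genes above 0 in the corrected values the CTFs were not the lower cells here, with a median of 1612 genes per cell against 1429 in CBFs1 and 1275 in CBFs2. The log2 ratio of CBFs over CTFs was 4.48 (interval 1.78 to 10.00), again against 1 count, and fell to 2.21 with doubled marker cuts, which left 67 CTFs. After thinning every cell to 2300 corrected counts, the intervals of Rspo3 in the wild-type and reporter libraries overlapped, at 3.33% and 2.44% in CBFs1 and 7.0% and 8.19% in CBFs2. Those of Rspo1 in CBFs2 did not, at 1.85% (interval 0.850 to 3.49) and 5.10% (interval 3.54 to 7.09). At this total 0 of 723 wild-type CTFs remained above 0, which allows a share of up to 0.415%, and 1 of 362 reporter CTFs.

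In the wild-type library all 3 R-spondin genes were higher in CBFs than in CTFs. They were more than 2-fold above CTFs, as were 11.3% of the 12951 genes with a mean of at least 0.01 in either group. Rspo1 and Rspo3 were also more than 2-fold higher in reporter CBFs, as were 9.83% of 11816 genes. For Rspo1 the intervals of the shares overlapped there, with 71 of 3026 CBFs (2.35%, interval 1.84 to 2.95) and 3 of 362 CTFs (0.829%, interval 0.171 to 2.40), and Rspo2 did not reach the minimum mean there.

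**Figure D1:**
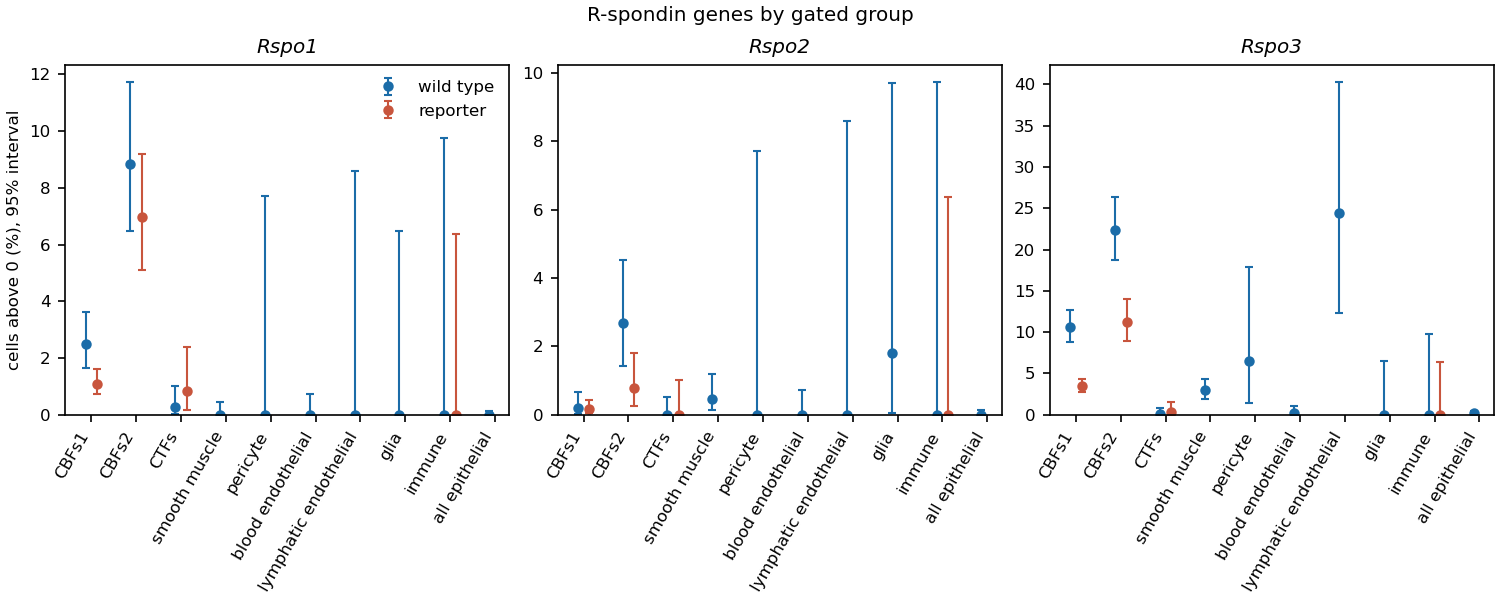
Share of cells with a corrected count above 0 (vertical axis, percent, linear and separate for each gene) for Rspo1, Rspo2 and Rspo3 in each gated group, wild type in blue and reporter in red; points are shares, bars are 95% Clopper-Pearson intervals, and groups under 30 cells are not drawn. Rspo1 and Rspo3 are higher in CBFs2 than in CTFs in both libraries and Rspo2 in the wild type, the interval of Rspo3 in the 41 lymphatic endothelial cells runs from 12.4% to 40.3%, and intervals reaching from 0 to several percent mark groups too small to exclude a low share.

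Between the CBF groups, Rspo3 was higher in CBFs2 than in CBFs1 in both libraries. Its log2 ratio was 1.25 (interval 0.75 to 1.75) among wild-type cells and 1.63 (interval 0.99 to 2.26) among reporter cells, where it fell to 0.92 with doubled marker cuts. Rspo1, a second R-spondin ligand gene, showed the same direction. Cells above 0 were 27 wild-type CBFs1 (2.50%, interval 1.65 to 3.61) and 43 CBFs2 (8.85%, interval 6.48 to 11.7), and 26 reporter CBFs1 (1.09%, interval 0.715 to 1.60) and 45 CBFs2 (6.96%, interval 5.12 to 9.20). For Rspo1 the log2 ratio was 1.63 (interval 0.64 to 2.63) among wild-type and 2.49 (interval 1.5 to 3.51) among reporter cells, and in the latter it ran from 1.56 with doubled to 3.08 with halved marker cuts. Rspo1 was rare in CTFs, in 2 of 723 wild-type and 3 of 362 reporter cells.

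Rspo2, the third ligand gene measured, was sparse. Only 22 wild-type and 9 reporter cells were above 0, with no value above 2. Of the 22 wild-type cells, 13 were CBFs2 (2.67%, interval 1.43 to 4.53), 2 were CBFs1 (0.185%, interval 0.0224 to 0.667), 4 were smooth muscle, 1 was a glial cell and 2 were in no group. The 4 smooth muscle cells had a median fibroblast marker sum of 243.5, against 52.5 in the rest of their group. None of the 723 CTFs was above 0, which allows a share of up to 0.415%. With 2 counts in CBFs1, the log2 ratio of wild-type CBFs2 over CBFs1 was 4.06 for Rspo2, with an interval of 1.31 to 7.87. Among reporter cells 5 of 647 CBFs2 (0.773%) and 4 of 2379 CBFs1 (0.168%) were above 0, and these intervals overlapped (0.251 to 1.79 and 0.0458 to 0.430). All 3 ligand genes were more than 2-fold higher in wild-type CBFs2 than in CBFs1, as were 10.3% of 13052 genes. Rspo1 and Rspo3 were so in the reporter library, as were 5.09% of 11462 genes, and Rspo2 missed the minimum mean. CBFs1 and CBFs2 differed little in depth in the wild-type library, with medians of 2654 and 2792 genes per cell.

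Within the CBFs, Rspo3 and Rspo1 were read against the sum of the CBF2 markers. Wild-type Rspo3 was above 0 in 9.75% of 687 CBFs with a CBF2 marker sum of 0, in 12.9% at 1 to 3 and in 9.41% at 4 to 7. Shares were 25% at 8 to 15, 21.9% at 16 to 31 and 21.5% at 32 or more. The higher shares thus lay above the cut that separates the groups, and they did not increase further there. Rspo1 was at 2.91% at a sum of 0, 1.62% at 1 to 3, 2.35% at 4 to 7, 5.77% at 8 to 15, 7.65% at 16 to 31 and 11.8% (interval 7.56 to 17.4) at 32 or more. The highest bin was also the deepest, with a median of 3018 genes per cell against 2314 to 2699 in the others. Reporter Rspo3 was at 2.97% at a sum of 0, 6.15% at 1 to 2, 12.4% at 3 to 5, 10.8% at 6 to 11 and 9.71% at 12 or more. Wnt2b, which encodes a canonical Wnt ligand, took another course in these cells. It was detected in 24.2% of wild-type CBFs with a CBF2 marker sum of 0 and in 10.8% at 32 or more, and in 5.93% and 0 of 103 cells of the lowest and highest reporter bins.

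The study separates colonic fibroblasts by their Pdgfra level, and Rspo3 was therefore also read against Pdgfra. Among all 2552 wild-type fibroblasts Rspo3 was above 0 in 7.37% (interval 5.12 to 10.2) of those with no Pdgfra count, 13.9% (interval 11.5 to 16.6) at 1 to 2 and 12.3% (interval 9.91 to 15.1) at 3 to 5. It was at 3.09% (interval 1.74 to 5.04) at 6 to 11 and 2.49% (interval 0.813 to 5.71) at 12 or more. Wild-type Rspo3 was therefore most frequent at low but detected Pdgfra. Fibroblasts with no Pdgfra count were also the shallowest, with a median of 2158 genes per cell against 2592 to 2705 in the other bins, and the part of depth in their lower share was not tested. Of the reporter cells, 4.85% of 2868 fibroblasts with no Pdgfra count were above 0 for Rspo3, 4.72% at 1, 2.51% at 2 and 0 of 124 at 3 or more, which allows up to 2.42%. Rspo1 was at 5.09% in the wild-type bin of 3 to 5 Pdgfra counts and at 0.498% at 12 or more.

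**Figure D2:**
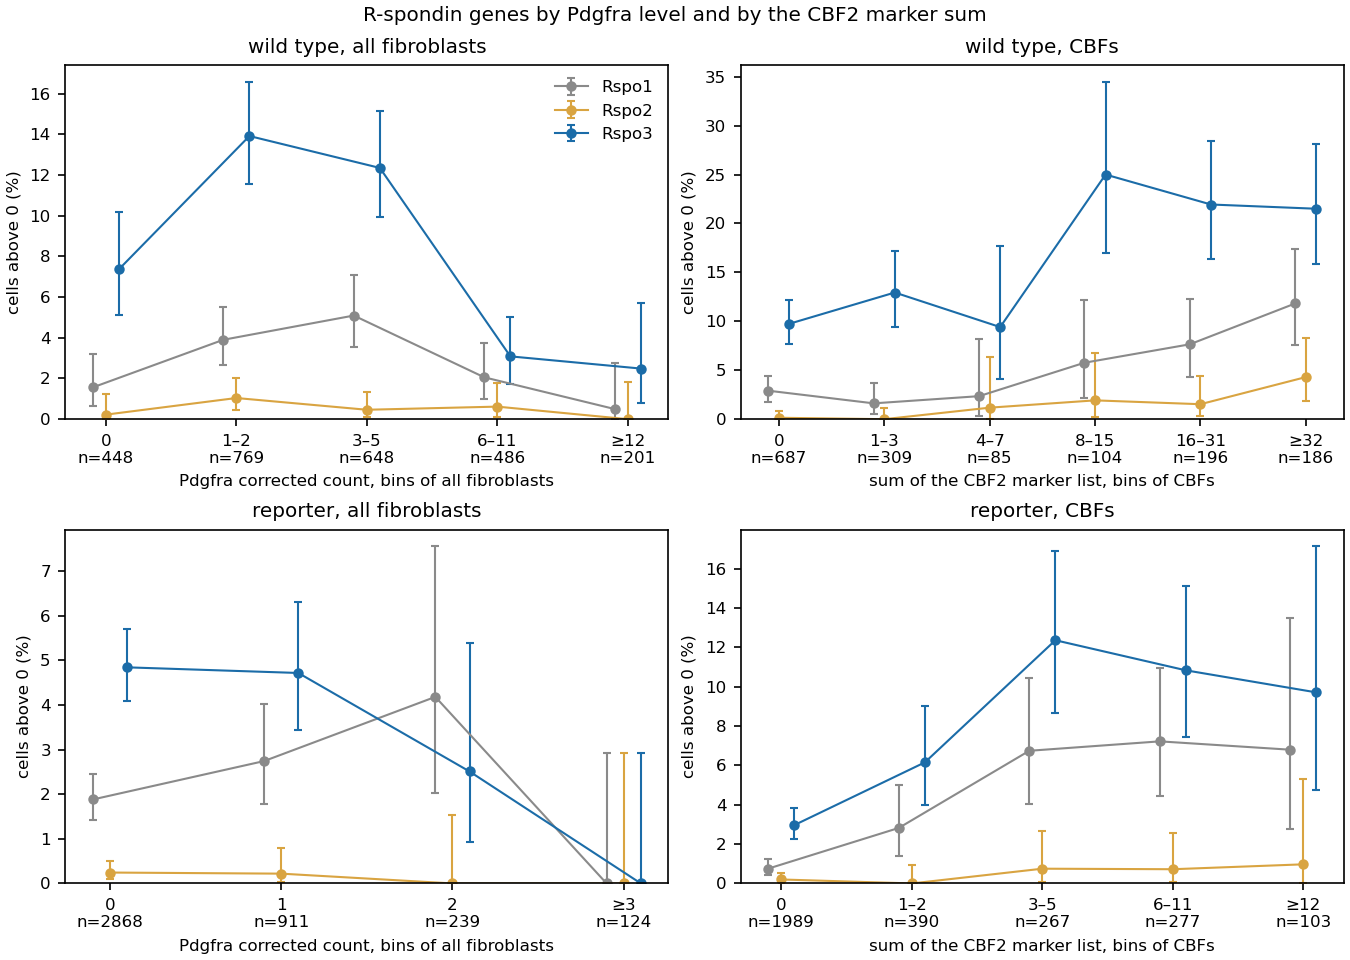
Share of cells above 0 (vertical axes, percent, separate scales) for Rspo1, Rspo2 and Rspo3 in bins of the Pdgfra corrected count over all fibroblasts (left) and in bins of the summed CBF2 markers over CBFs (right), wild type above and reporter below; bars are 95% Clopper-Pearson intervals and the number of cells is under each bin. Rspo3 falls from 12.3% to 3.09% between the wild-type bins of 3 to 5 and 6 to 11 Pdgfra counts, and rises from 9.41% to 25% between CBF2 sums of 4 to 7 and 8 to 15.

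Rspo3-positive CBFs were also more often positive for Grem1, which encodes the secreted BMP antagonist gremlin. Among wild-type CBFs2, 67.9% (interval 58.3 to 76.5) of the 109 cells with Rspo3 above 0 had Grem1, against 32.9% (interval 28.2 to 37.9) of the 377 without. Mean Grem1 was 7.58 and 2.95 corrected counts per cell, and the cells had medians of 2871 and 2773 genes. Among wild-type CBFs1 the shares were 52.2% (interval 42.7 to 61.6) and 33.7% (interval 30.8 to 36.8). In reporter CBFs the shares were 34.0% (interval 26.6 to 42.0) and 26.0% (interval 24.4 to 27.6), and the intervals overlapped. Wnt2b, by contrast, was found in 19.6% of wild-type CBFs with Rspo3 and 19.5% of those without, and Wnt2 in 16.5% and 19.4%, again with overlapping intervals. Within CBFs1 Wnt2b was at 24.3% and 22.4% and Wnt2 at 21.7% and 21.6%. Within CBFs2 Wnt2b was at 14.7% and 12.2% and Wnt2 at 11.0% and 13.8%. The intervals of each pair overlapped. Rspo1 was read beside Rspo3 in the same way. In wild-type CBFs2, 15.6% (interval 9.36 to 23.8) of Rspo3-positive and 6.90% (interval 4.55 to 9.94) of Rspo3-negative cells had Rspo1. These intervals overlapped slightly, and Rspo1-positive CBFs2 were deeper, at a median of 3153 genes against 2762. Over all wild-type CBFs, 22 of 224 Rspo3-positive cells (9.82%, interval 6.26 to 14.5) and 48 of 1343 Rspo3-negative cells (3.57%, interval 2.65 to 4.71) had Rspo1. The reporter CBFs gave 7.05% (interval 3.57 to 12.3) and 2.09% (interval 1.60 to 2.68). Both genes were higher in CBFs2, and within wild-type CBFs1, reporter CBFs1 and reporter CBFs2 the intervals also overlapped.

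Outside the fibroblasts Rspo3 was found in lymphatic endothelial and smooth muscle cells. Lymphatic endothelial cells had the highest mean of any group, 0.512 corrected counts per cell, with 10 of 41 cells above 0 (24.4%, interval 12.4 to 40.3) and values of 5, 5, 2, 2, 2 and 5 cells at 1. Blood endothelial cells had 1 of 511 (0.196%, interval 0.00495 to 1.09), at nearly the same depth, with medians of 2068 and 2029 genes per cell. Rspo3 was thus more than 2-fold higher in lymphatic than in blood endothelium, as were 17.5% of 12224 genes. The fibroblast marker sum was 2 at the median of the 10 positive lymphatic cells and at most 4, where wild-type CBFs2 had a median of 306. The order of lymphatic endothelial cells and CBFs2 cannot be told from their shares, whose intervals overlapped.

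Smooth muscle had 25 of 848 cells above 0 for Rspo3 (2.95%, interval 1.92 to 4.32), of which 16 were at 1, 2 at 2 and 7 at 3 or more, with a highest value of 11. Among cells with 2000 to 3500 genes the share was 1.79%. Of these 25 cells 8 also had Grem1 (32%, interval 14.9 to 53.5), against 7 of 823 Rspo3-negative smooth muscle cells (0.851%, interval 0.343 to 1.74). The summed fibroblast markers were similar, with medians of 60 and 53, and the CBF marker sum had medians of 1 and 0, while the depth was 2950 and 2638 genes per cell. Pdgfra was above 0 in 6 of the 25 and 53 of the 823 cells (24% and 6.44%, intervals 9.36 to 45.1 and 4.86 to 8.34), and the part of fibroblast RNA in these cells was not tested. Among the 46 pericytes 3 had Rspo3, at values of 3, 2 and 1 (6.52%, interval 1.37 to 17.9). No glial or immune cell had it, which allows shares of up to 5.45% and 8.33%. Rspo1 was at 0 in all smooth muscle, endothelial, pericyte, glial and immune cells. The 2 mesothelial cells, which line the outer surface of the gut, both had Rspo1, at values of 9 and 2, where the highest value in any fibroblast was 5. Their fibroblast marker sums were high as well, with a median of 174.5.

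The epithelium was close to free of ligand transcripts. Rspo1 and Rspo2 were at 0 in all 2736 epithelial cells, which allows shares of up to 0.110%, although these cells were deeper than the fibroblasts, with medians of 3144 and 2598 genes per cell. Rspo3 was above 0 in 5 epithelial cells (0.183%, interval 0.0594 to 0.426), namely 4 colonocytes with values of 4, 1, 1 and 1 and 1 cell of the Krt36/Fut9 group. These cells also had fibroblast markers, with a median sum of 7.5 in the 4 colonocytes and a sum of 26 in the Krt36/Fut9 cell, against medians of 0 in the rest of both groups, and the part of fibroblast RNA was not tested. The CTF interval overlapped that of the epithelium, and no Rspo3 expression is read from the single CTF count.

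The receptor gene Lgr5 was most frequent in the crypt base groups. The epithelial groups were gated on Smoc2, Slc12a2, Cdca7, Rgmb, Prom1 and Mex3a for the crypt base and on Mki67, Top2a, Ube2c, Birc5, Cdk1 and Ccnb2 for division. Only epithelial cells below the enteroendocrine, goblet, colonocyte and Krt36/Fut9 cuts could enter the crypt base and dividing groups. The other epithelial groups can thus hold cells with a high crypt base sum. Lgr5 was above 0 in 141 of 418 crypt base cells that did not divide (33.7%, interval 29.2 to 38.5) and in 48 of 128 dividing cells high for crypt base markers (37.5%, interval 29.1 to 46.5). Only 2 of 85 dividing cells low for these markers had it (2.35%, interval 0.286 to 8.24). Dividing cells were thus Lgr5-positive or not along with the crypt base markers, at nearly equal depth (medians of 3526 and 3424 genes). The crypt base list was picked to mark the cells of which Lgr5 is the classical marker. That Lgr5 went with this list is therefore no independent finding. Mean Lgr5 was 0.867 corrected counts per cell in dividing crypt base cells and 0.605 in crypt base cells that did not divide, and the intervals of their shares overlapped. The next group was the absorptive Krt36/Fut9 cells, with 37 of 296 (12.5%, interval 8.96 to 16.8). Enteroendocrine cells had 4 of 76 (5.26%, interval 1.45 to 12.9), the Reg4-high secretory cells 7 of 249 (2.81%, interval 1.14 to 5.71), goblet cells 5 of 439 (1.14%, interval 0.371 to 2.64) and colonocytes 3 of 515 (0.583%, interval 0.120 to 1.69). From the Krt36/Fut9 cells down, the intervals of neighbours in this order overlapped. The 5 goblet cells with Lgr5 had a median crypt base sum of 8, against 4 in the other goblet cells and a crypt base cut of 6. The part of cells with a high crypt base sum in the Lgr5 shares of these groups was not tested. Crypt base cells over colonocytes gave a log2 ratio of 6.10 (interval 4.39 to 8.54), from 5 counts in colonocytes, and ran from 5.49 with halved to 7.74 with doubled marker cuts. Lgr5 was the 1 member more than 2-fold higher in the crypt base, as were 37.6% of the 13310 genes. Rspo3 was at 0 in all 546 crypt base cells (interval 0 to 0.673), which overlapped the interval of the colonocytes (0.212 to 1.98).

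**Figure D3:**
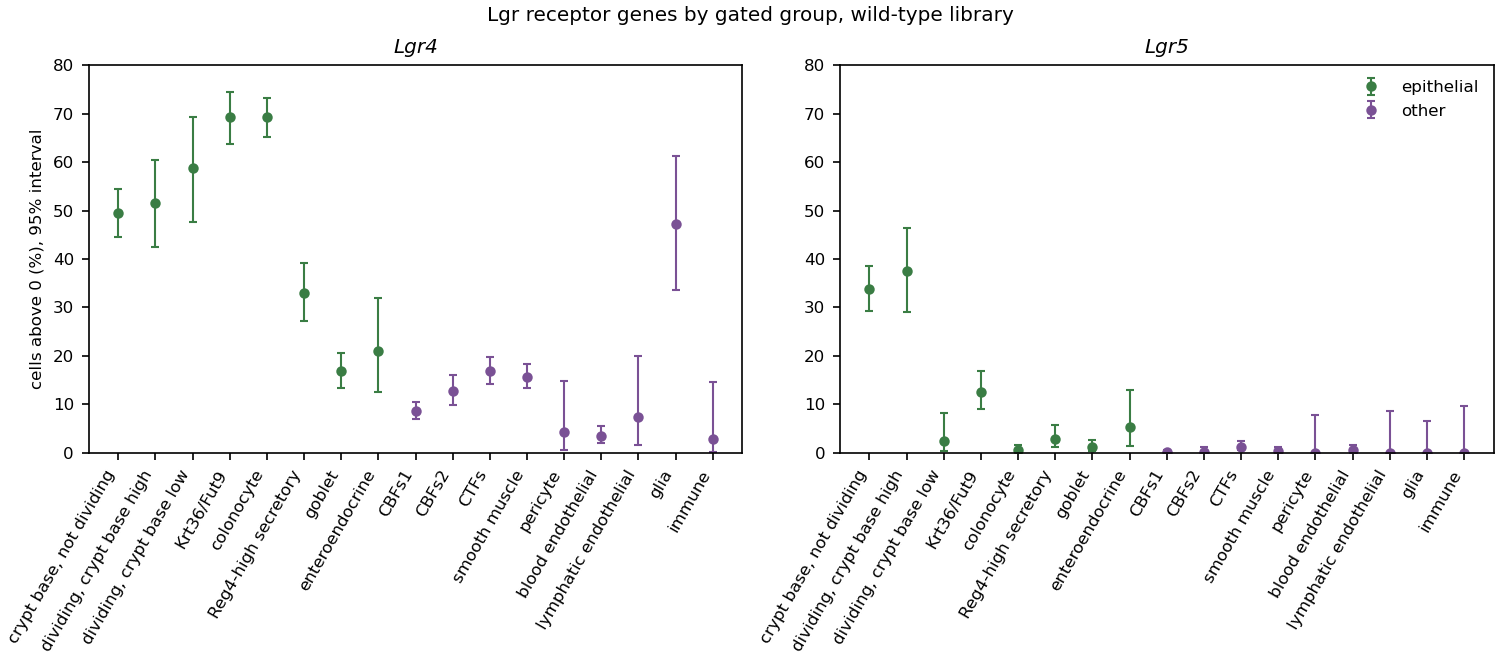
Share of cells with a corrected count above 0 (vertical axis, percent) for Lgr4 and Lgr5 in each gated group of the wild-type library, epithelial groups in green and others in purple, with 95% Clopper-Pearson intervals. Lgr4 is above 0 in 16.9% to 69.3% of the cells of each epithelial group and in 47.3% of glia, whereas Lgr5 exceeds 20% only in the crypt base groups.

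Lgr5 rose steeply along the crypt base marker sum, a list picked for the cells of which Lgr5 is the classical marker. Shares were 0.491% of epithelial cells with a sum of 0, 0.328% at 1 to 2, 2.22% at 3 to 5, 6.42% at 6 to 9, 27.4% (interval 22.7 to 32.5) at 10 to 15 and 66.5% (interval 58.8 to 73.6) at 16 or more. Median depth also rose along these bins, from 2923 to 3429 genes per cell. Doubling all marker cuts accordingly raised the share in crypt base cells that did not divide to 49.0%, and halving them lowered it to 25.2%, so the share depends on where the group is drawn. Lgr4 did not follow this course. Its share was 68.6% in cells with a sum of 0, 40.6% at 6 to 9 and 53.9% at 16 or more. Along the colonocyte marker sum Lgr4 increased, from 42.3% (interval 39.6 to 45.1) at 0 to 68.8% (interval 63.0 to 74.1) at 100 or more, while Lgr5 went from 14.5% to 0.694%.

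**Figure D4:**
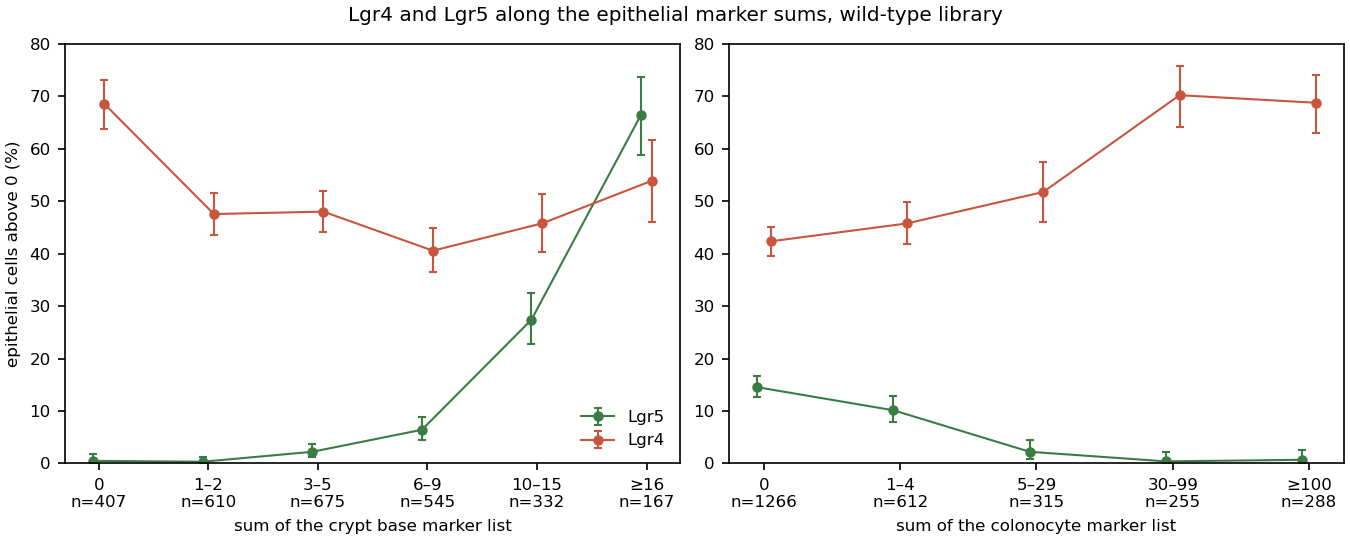
Share of wild-type epithelial cells above 0 (vertical axis, percent) for Lgr5 in green and Lgr4 in red, in bins of the summed crypt base markers (left) and colonocyte markers (right), with 95% Clopper-Pearson intervals and the number of cells under each bin. Lgr5 climbs from 0.491% to 66.5% across the crypt base bins, and Lgr4 climbs from 42.3% to 68.8% across the colonocyte bins.

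Lgr4 was the broad receptor gene of the epithelium. Its mean was highest in colonocytes, 1.15 corrected counts per cell (69.3% of cells above 0, interval 65.1 to 73.3), followed by Krt36/Fut9 cells at 1.05 (69.3%, interval 63.7 to 74.5), which did not differ beyond their intervals. Dividing cells low for crypt base markers were at 0.894 (58.8%, interval 47.6 to 69.4), crypt base cells that did not divide at 0.734 (49.5%, interval 44.6 to 54.4) and dividing crypt base cells at 0.727 (51.6%, interval 42.6 to 60.5), again with overlapping intervals. The secretory cells were lower. The Reg4-high cells were at 0.414 (32.9%, interval 27.1 to 39.1), enteroendocrine cells at 0.263 (21.1%, interval 12.5 to 31.9) and goblet cells at 0.228 (16.9%, interval 13.5 to 20.7). Goblet cells were deeper than colonocytes, with medians of 3284 and 2880 genes per cell. Colonocytes over goblet cells gave a log2 ratio of 2.34 (interval 1.95 to 2.74), past 2-fold as for 13.9% of 13317 genes. The colonocytes also had the higher mitochondrial share, with a median of 12.9% against 7.04%, and among cells at or below 10% the colonocyte share above 0 was 62.5%. Within the crypt base cells 48.7% (interval 41.4 to 56.0) of the Lgr5-positive and 50.7% (interval 45.4 to 56.0) of the Lgr5-negative cells had Lgr4, shares with overlapping intervals.

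Outside the epithelium Lgr4 stood out in glia, the supporting cells of the enteric nervous system. Lgr4 was above 0 in 26 of 55 glial cells (47.3%, interval 33.7 to 61.2), with a mean of 0.873, and 10 of these were at 1, 11 at 2 and 5 at 3 or more. The median epithelial marker sum was 4.5 in the Lgr4-positive and 4 in the Lgr4-negative glia, and Fzd5, a receptor gene whose mean was 1.07 in colonocytes, was above 0 in 1 of 55. Lgr4 was more than 2-fold higher in glia than in all fibroblasts, as were 16.9% of 13381 genes. CTFs had Lgr4 in 122 of 723 cells (16.9%, interval 14.2 to 19.8), smooth muscle in 133 of 848 (15.7%, interval 13.3 to 18.3), CBFs2 in 62 of 486 (12.8%, interval 9.92 to 16.1) and CBFs1 in 93 of 1081 (8.60%, interval 7.0 to 10.4). The lowest share in a larger group was in blood endothelium, 18 of 511 (3.52%, interval 2.10 to 5.51). The direction of the fibroblasts was thus the opposite of Rspo3. For Lgr4 in CTFs over CBFs the log2 ratio was 1.08 (interval 0.61 to 1.53) among wild-type and 1.37 (interval 0.26 to 2.39) among reporter cells, past 2-fold in both, as were 8.25% and 12.7% of all genes. Of the reporter cells 17 of 362 CTFs (4.70%, interval 2.76 to 7.41) and 66 of 3026 CBFs (2.18%, interval 1.69 to 2.77) were above 0. These intervals overlapped slightly, which by itself does not decide whether the shares differ, and no test was run. The reporter ratio interval lay above 0 but holds the means of the cells above 0 as fixed. At 2300 corrected counts per cell the shares were 5.53% of wild-type and 3.59% of reporter CTFs, and 2.04% and 1.55% of CBFs. The thinned intervals of CTFs and CBFs overlapped in the reporter library (1.93 to 6.06 and 1.14 to 2.06). They did not in the wild-type library (3.98 to 7.46 and 1.40 to 2.87). Along Pdgfra, wild-type Lgr4 increased from 7.14% (interval 4.94 to 9.93) of fibroblasts with no Pdgfra count to 17.4% (interval 12.4 to 23.4) at 12 or more. No such course was seen in the reporter fibroblasts, with 2.20%, 3.18%, 1.26% and 2.42% at 0, 1, 2 and 3 or more counts, the last from 3 of 124 cells. All epithelial over all fibroblast cells gave a log2 ratio of 2.37 (interval 2.16 to 2.59) for Lgr4, and both receptor genes were more than 2-fold higher in the epithelium, as were 36.9% of 14490 genes.

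Lgr5 was rare in the stroma. It was found in 9 of 723 CTFs (1.24%, interval 0.571 to 2.35), at values of 6, 2, 2 and 6 cells at 1, and in 3 of 1567 CBFs (0.191%, interval 0.0395 to 0.558). Blood endothelial cells had 3 of 511 (0.587%, interval 0.121 to 1.71). The CTF interval overlapped theirs, and not that of the CBFs. The median epithelial marker sum of the 3 endothelial cells was 21, against 6 in the rest. The 9 CTFs had epithelial marker sums of at most 7 and a median of 1. Ascl2, whose mean was 0.617 corrected counts in crypt base cells, was at 0 in all 723 CTFs, which allows a share of up to 0.415%. For the 9 CTFs alone the Ascl2 interval was 0 to 33.6%, and Lgr5-positive crypt base cells had Ascl2 in 52.9%. So few cells cannot set their Lgr5 apart from epithelial RNA. The median depth of the 9 CTFs was 3054 genes per cell against 2472 in the other CTFs. The log2 ratio of CTFs over CBFs was 3.53 (interval 0.86 to 6.72), from 3 counts in CBFs, and fell to 1.27 with doubled marker cuts. This interval takes the mean of the 9 positive CTFs, which includes the value of 6, as fixed. It therefore does not show that the ratio is clear of 0. Lgr5 could not be read in the reporter library.

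Of 14 further genes listed for the R-spondin axis, 12 were in the wild-type library, and Rspo4 and Lgr6 were in neither. In crypt base cells 10 of the 12 were more than 2-fold higher than in colonocytes, as were 37.6% of all genes, and 1, Fzd5, was more than 2-fold lower, as were 12.5%. The ubiquitin ligase genes Znrf3 and Rnf43 had means of 0.297 and 0.577 in crypt base cells and 0.0544 and 0.0971 in colonocytes. Axin2, a feedback inhibitor gene of the Wnt pathway, was at 0.720 and 0.0524, and Ascl2, a transcription factor gene of intestinal stem cells, at 0.617 and 0.0214. The Frizzled receptor gene Fzd7 was at 0.253 and 0.0388, and Fzd5, another Frizzled gene, was at 0.509 and 1.07. Within the crypt base cells Axin2, Rnf43, Ascl2 and Znrf3 were found more often beside Lgr5. Axin2 was above 0 in 66.7% (interval 59.5 to 73.3) of Lgr5-positive and 37.3% (interval 32.2 to 42.5) of Lgr5-negative cells, Rnf43 in 64.0% and 34.2%, Ascl2 in 52.9% and 24.6% and Znrf3 in 37.0% (interval 30.1 to 44.3) and 23.5% (interval 19.2 to 28.3). For Znrf3 the intervals overlapped among the crypt base cells that did not divide, at 33.3% (interval 25.6 to 41.8) and 26.0% (interval 20.9 to 31.6). For Rnf43 they overlapped among the dividing crypt base cells, at 52.1% (interval 37.2 to 66.7) and 28.8% (interval 19.2 to 40.0). The Lgr5-positive cells were slightly deeper, with medians of 3436 and 3310 genes. Like Lgr5, these genes also rose with the crypt base marker sum over all epithelial cells. From sums of 6 to 9 to sums of 16 or more, Axin2 went from 22.4% to 69.5% and Rnf43 from 24.8% to 59.9%. Ascl2 went from 13.2% to 50.9% and Znrf3 from 16.5% to 41.3%. Whether they lay beside Lgr5 at an equal sum was not tested, here or in the Krt36/Fut9 cells below. Mki67, a gene of dividing cells, was above 0 in 40.2% and 34.2%, with overlapping intervals. The Lgr5-positive cells of the Krt36/Fut9 group likewise had Ascl2 more often, in 26 of 37 cells (70.3%, interval 53.0 to 84.1) against 53 of 259 (20.5%, interval 15.7 to 25.9), at medians of 3284 and 3119 genes.

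Other axis genes were highest outside the epithelium. Nkd1, which encodes an inhibitor of Dishevelled, and Tnfrsf19, a receptor gene of the TNF family and a known Wnt target, were highest in smooth muscle, with means of 0.761 and 0.538 corrected counts per cell against 0.0330 and 0.0311 in crypt base cells. The Wnt co-receptor gene Lrp6 was highest in CBFs2, at 1.02, and its relative Lrp5 in blood endothelium, at 0.292, and both were also found in the epithelium, with means of 0.455 and 0.148 over all epithelial cells. Between CBFs and CTFs, 1 of the 9 axis genes with a sufficient mean, Axin2, was more than 2-fold higher in wild-type CBFs, as were 11.3% of all genes. In CTFs 3 were more than 2-fold higher, namely Nkd1, Sp5 and Tnfrsf19, as were 8.25% of all genes. Of 7 in the reporter library 1 was higher in CBFs (Znrf3) and 1 in CTFs (Nkd1), against 9.83% and 12.7% of all genes. Axin2 had means of 0.0182 in reporter CBFs and 0.0221 in CTFs, so its direction in the wild-type library was not seen there.

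**Figure D5:**
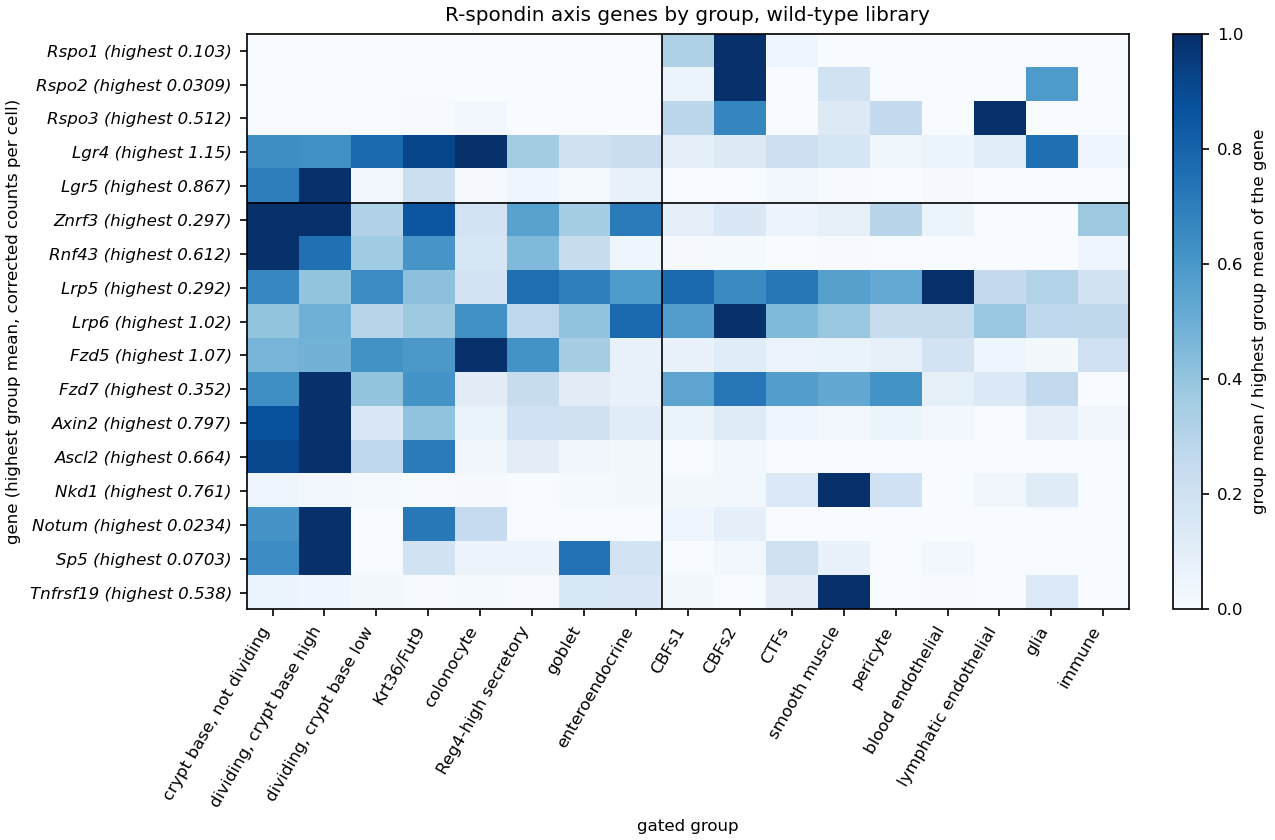
Group means of the 5 genes (above the line) and of the 12 further axis genes listed in the wild-type library, each divided by the gene's highest group mean, which is printed beside the name in corrected counts per cell; columns are gated groups, with epithelial groups left of the vertical line. Ligand genes are dark only right of the line, Lgr5, Rnf43, Axin2 and Ascl2 in the crypt base columns, and Nkd1 and Tnfrsf19 in smooth muscle.

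The genes most like each member were ranked by Pearson correlation of the log2 group means over 17 wild-type groups, among 13326 genes with a mean of at least 0.1 in some group. These groups share 1 library, and many groups were at or near 0, so the values are a description. Rspo1 was most like Fam198a (r = 0.997), Adamtsl3 (0.97), Gfpt2 (0.95), Stmn4 (0.95) and Art4 (0.94), and each of these was highest in CBFs2. Rspo3 was most like Radil (0.90), Tgfb3 (0.87), Igfbp5 (0.87), Kcnt2 (0.87) and Wnt9a (0.86), of which Radil and Igfbp5 were highest in lymphatic endothelium and the others in CBFs2. Rspo2 was most like Gap43 (0.93), E130114P18Rik (0.93), Chrdl1 (0.90), Gm44080 (0.90) and P4ha3 (0.87), an order that rests on few counts. Lgr4 was most like Fads2 (0.92), Igsf9b (0.92), Mpst (0.91), Aldh1a7 (0.90) and Mrpl14 (0.89). Lgr5 was most like Fbp1 (0.96), Gad2 (0.93), Gm37364 (0.93), Wdr31 (0.93) and Cps1 (0.92), all of them highest in a crypt base group.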

How the data were processed

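The authors aligned reads to mm10 with Cell Ranger 3.0.1, filtered cells and genes in Seurat 3.1 under R 3.6.2 (keeping cells up to 25% mitochondrial reads for the wild type, 10% for the reporter) and applied SCTransform. The deposited score values are whole numbers, UMI counts that the authors corrected by SCTransform to a common depth, and the deposited natural log values are the logarithm of these values plus 1. Sequenced depth cannot be recovered from them, and a value above 0 need not match a molecule.

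Cells were gated on sums of 19 marker lists, with cuts set from the marker sums alone. Members and lists were chosen with earlier results of these data known, and some fibroblast markers came from leading genes of earlier clusters. Group means and shares of cells above 0 were computed in Python 3.11.15 with numpy 2.4.6 and scipy 1.17.1. The limit for a share of 0 is 3 cells over the number of cells. The named genes are the 5 members, the listed axis genes, niche genes set beside a member, gate markers and, for each member, the 5 genes most alike in log2(mean + 0.01) over groups of at least 30 cells; Mki67 is a gate marker. The interval of a ratio combines the outer bounds of both shares. The computation of the ratios was checked on simulated counts with known ratios. Doublets were called with Scrublet in scanpy 1.11.5, which marked 5 wild-type (0.0667%) and 7 reporter cells (0.159%) and so did not work. Cells passing cuts of several lineages were left out instead, except in the combinations allowed for smooth muscle, lymphatic endothelial and mesothelial cells. Wild-type smooth muscle cells had a median fibroblast marker sum of 53, against a fibroblast cut of 30. They were thus not screened for mixtures with fibroblasts. Libraries shared 1 cell barcode. Gene positions come from GENCODE mouse release M21, and figures were drawn with matplotlib 3.10.9.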

Additional observations from a re-analysis of the deposited data

Results flagged for a closer look

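The cells left in no group, because they passed the cuts of several lineages or of none, entered no comparison. Several genes were above the limit that a count of 0 allows in these cells. Of the 668 wild-type cells, 617 passed more than 1 lineage cut. Rspo3 was above 0 in 7.49% of the 668 (50 cells, interval 5.61 to 9.75), Lgr4 in 20.7%, Lgr5 in 3.59% and Rspo1 in 0.749%. In the 188 reporter cells of this kind Rspo3 was above 0 in 2.13% and Lgr4 in 9.04%. These 50 cells were 15.0% of all wild-type cells with Rspo3, and the highest Rspo3 value of the library, 14, was in one of them.

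Among the 668 wild-type cells, 74 passed the fibroblast, smooth muscle and pericyte cuts together. Rspo3 was above 0 in 16 of the 74 (21.6%, interval 12.9 to 32.7), with a mean of 0.703 and a highest value of 10, and Grem1 in 15 (20.3%). Rspo1 and Rspo2 were at 0 in all 74. In 137 cells that passed the epithelial and fibroblast cuts, both Rspo3 (7.30%) and Lgr5 (8.76%) were above 0. Whether these are single cells or pairs of cells was not tested. In the reporter library 13 of 30 cells that passed the epithelial and immune cuts had Lgr4 (43.3%).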

How the results depend on the processing

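No paired analysis was possible because each condition has 1 library. Of 108 recomputed log2 ratios none changed direction. Some values left the interval of the main value. With doubled marker cuts the Rspo3 ratio of CBFs2 over CBFs1 in the reporter library was 0.92 and the Lgr4 ratio of colonocytes over goblet cells 1.94. Without cells above 10% mitochondrial counts the Lgr4 ratio of epithelium over fibroblasts was 2.01. Thinned to 2300 counts, the Rspo3 share was 0.590% in smooth muscle and 12.2% in lymphatic endothelium, and the Lgr4 share in glia 18.2%. Among cells with 2000 to 3500 genes the Rspo3 share in smooth muscle was 1.79%. The cause of these changes was not tested. Leaving out Scrublet doublets removed too few cells to test anything.

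The share of all genes past 2-fold moved by more than 1.5 times in some settings. With no minimum mean it was 18.7% for wild-type and 20.1% for reporter CBFs over CTFs, and 7.68% for reporter CBFs2 over CBFs1. With a minimum mean of 0.05 it was 6.15% for reporter CBFs over CTFs. With doubled cuts it was 25.4% for reporter CTFs over CBFs. Ratios could not be computed where a group had no count left, as for Rspo3 in wild-type CTFs after thinning, for Rspo2 in CBFs1 and Lgr5 in colonocytes without cells above 10% mitochondrial counts, and for Lgr5 in CBFs at 2300 counts. The number of cells limits the small groups most, as 0 of 41 cells allows a share of up to 7.32%.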
